A study of Mus musculus with 59 samples.

Results

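Immunoglobulin variable (V) segment genes were followed in sorted KLS cells (c-Kit+ Lineage- Sca-1+, the bone marrow fraction that holds haematopoietic stem cells and early multipotent progenitors). A V segment was counted as a member when its symbol began with Ighv (heavy chain) or Igkv (kappa light chain) and its highest value over the KLS libraries was 50 or more normalized counts. This rule found 136 members, 68 Ighv and 68 Igkv, among 343 such symbols (183 Ighv and 160 Igkv) and 51562 genes shared by the KLS tables. The members were thus chosen by their own KLS values, which are given as a description, without a test. At the edge of the rule, Igkv4-80 (53.3) and Ighv15-2 (55.6) lay just inside, and Ighv2-3 (47.6) and Ighv1-66 (46.4) just outside.

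The study compared bone marrow cells of C57BL/6 mice that lost the histone chaperone Daxx, the transcription factor Pu.1 (gene Spi1), or both, with controls that carried the same Cre. The first set had no time or mouse line in its labels and held 2 Daxx +/+ Cre +/- libraries (WT) and 2 Daxx F/F Cre +/- libraries (Daxx-KO) for each of KLS cells and granulocyte-monocyte progenitors (GMPs). It is called untimed here. The second set came from Mx1Cre mice at 3 weeks post induction (3 wpi) and held 3 WT, 3 Daxx-KO and 2 libraries with both Daxx F/F and Pu.1 F/F, again Cre +/- (labelled DKO), per cell type. The third set, also Mx1Cre at 3 wpi and called the Pu.1 line, held 2 Pu.1 +/+ Cre +/- (WT) and 2 Pu.1 F/F Cre +/- libraries (labelled Pu.1-KO) per cell type. The Mx1 promoter is switched on by interferon after pI:pC injection and is active in many cell types, lymphocytes among them, so that deletion need not be limited to stem cells. Columns of the Pu.1 line and of the 3 wpi GMPs are told apart by the letters a to c, and 1 of the 3 wpi WT KLS libraries, whose column gives no replicate number, is called the unnumbered library. The labels give the genotypes of these groups but name none of these columns. Pu.1 line columns and the unnumbered library were assigned by a control or treatment ending in the names of matching columns of repeat values. The 3 wpi GMP columns were assigned by a number shared with a KLS column. By the study's methods the 3 wpi Mx1Cre cells came from steady-state mice, whereas the host of the untimed set, steady-state or transplanted, was not settled. The labels name 1 library kit for all samples and the methods a different kit for each kind of mouse, so the kit was not settled either. Each set and cell type was normalized by the authors on its own, and levels of the genotypes are compared within a set and cell type.

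The libraries held 3857858 to 22647397 gene reads in KLS cells and 3388906 to 17307510 in GMPs. Daxx was at 29.7 and 33.9 normalized counts in the untimed Daxx-KO KLS libraries against 119 and 138 in WT, and at 72.2 to 102 in the 3 wpi Daxx-KO KLS libraries against 423 to 505 in WT. Spi1 did not follow the labels in KLS cells, with 1307 and 2920.5 in the libraries labelled Pu.1-KO against 2080.1 and 2764 in WT, and 2993 and 3330.4 in those labelled DKO against 1669 to 2320.0 in WT. Which exons the Pu.1 allele removes is not given in the sources used here, so whole-gene Spi1 values check neither label. A list of 9 KLS marker genes, not limited to the proteins of the sorting gate, was above 0 throughout in all 16 KLS libraries. Nearly all 9 were above 0 in each GMP library too, so this does not check the sort. Their summed level ran from 10031 to 94409 in KLS libraries and from 5078 to 14007 in GMPs. The summed level of 5 mature neutrophil markers ran from 37.9 to 164317 over the KLS libraries and was highest in those labelled DKO (164317 and 132892), and was 26310.0 in the unnumbered WT library against 2235 and 489 in WT 1 and WT 2. Its part in the V segment values was not tested.

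An antibody gene is put together in a developing B cell, when a V segment is joined to D and J segments at the heavy chain locus and another V segment to a J segment at a light chain locus. Before that step V segments are nearly silent, and after it the chosen V promoter is driven by the enhancers of the locus, most strongly in plasma cells. A B-cell clone uses a single productive heavy and a single productive light chain V segment as a rule, whereas a population of many clones spreads its reads over many segments. Ighv11-2 with Igkv14-126, and Ighv12-3 with Igkv4-91, are textbook pairs of B-1a cells, the innate-like B cells of the body cavities, and both pairs bind phosphatidylcholine.

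The segments on which the results turn are shown by the last 120 bases of their longest transcript (GENCODE M21, GRCm38), 5′ to 3′, with capitals from the codon of the conserved cysteine to the end of the segment, the germline start of the third complementarity-determining region. Ighv11-2 lies at chr12:114048241-114048812 and Ighv12-3 at chr12:114366521-114366954, both on the minus strand. Igkv14-126 lies at chr6:67896172-67896642 on the plus strand, and Igkv4-91 (chr6:68768555-68769103), Igkv8-19 (chr6:70340876-70341453) and Igkv12-46 (chr6:69764523-69765022) on the minus strand. The first pair is shown because it led most libraries, the second because it is the other phosphatidylcholine pair, and Igkv8-19 and Igkv12-46 because they led the kappa reads of the libraries labelled DKO.
Ighv11-2: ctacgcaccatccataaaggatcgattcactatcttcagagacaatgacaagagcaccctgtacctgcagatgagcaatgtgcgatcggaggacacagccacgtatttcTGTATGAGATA
Igkv14-126: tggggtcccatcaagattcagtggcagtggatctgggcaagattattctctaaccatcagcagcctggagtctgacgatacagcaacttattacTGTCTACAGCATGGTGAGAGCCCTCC
Ighv12-3: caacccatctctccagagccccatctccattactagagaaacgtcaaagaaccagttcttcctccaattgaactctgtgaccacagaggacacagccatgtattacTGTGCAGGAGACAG
Igkv4-91: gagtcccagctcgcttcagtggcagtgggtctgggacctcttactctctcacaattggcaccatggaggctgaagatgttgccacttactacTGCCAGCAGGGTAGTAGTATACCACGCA
Igkv8-19: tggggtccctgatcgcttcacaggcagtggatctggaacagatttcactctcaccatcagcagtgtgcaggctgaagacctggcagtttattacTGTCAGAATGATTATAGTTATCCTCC
Igkv12-46: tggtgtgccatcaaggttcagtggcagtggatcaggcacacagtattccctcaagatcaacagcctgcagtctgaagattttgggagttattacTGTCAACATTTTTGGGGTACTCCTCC

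Igkv14-126, the leading kappa segment, shared none of its 50-base windows with another V segment transcript, and its nearest segment, Igkv14-111, was 91.6% identical. Ighv11-2 was 98.9% identical to Ighv11-1, and 38.6% of its windows occurred in another segment. Ighv11-1 nevertheless held at most 7.003 normalized counts in any KLS library, against up to 34045 for Ighv11-2. Over the 136 members a median of 23.4% of windows was shared, 21 members shared none and 17 shared over 50%, so that the split of reads between close relatives such as Igkv8-19 and Igkv8-28 (97.6% identical) is uncertain.

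V segment reads were a small but very uneven share of the KLS libraries, from 0.000709% to 0.731% of gene reads. In the untimed set, the Ighv members summed to 3594 and 1607 normalized counts in WT 1 and WT 2 and to 19.7 and 16.7 in Daxx-KO 1 and Daxx-KO 2. The Igkv members summed to 6071 and 2496 in WT and to 29.5 and 54.2 in Daxx-KO. Both loci were far lower in both Daxx-KO libraries, and the WT mean was 143 times the Daxx-KO mean for Ighv and 102 times for Igkv.

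At 3 wpi the order was the other way round for all WT libraries but 1. The Ighv members summed to 2194 in WT 1, 1124 in WT 2 and 45570.1 in the unnumbered WT library. They summed to 20568, 40063 and 40676 in Daxx-KO 1, 2 and 3, and to 32689 and 43528 in DKO 1 and DKO 2. The Igkv members followed the same libraries, with 1695, 759 and 32426 in WT, 13017, 25480.2 and 33810.3 in Daxx-KO, and 23421 and 56146 in DKO. The unnumbered WT library lay above the Daxx-KO libraries for Ighv and within their range for Igkv, and the groups overlapped. The ratio of the Daxx-KO to the WT mean was 2.07 at either locus with all libraries, and without the unnumbered library 20.4 for Ighv and 19.6 for Igkv. For the libraries labelled DKO the Ighv ratio to WT was 2.34 with all libraries and 23.0 without the unnumbered library, and the Igkv ratio 3.42 and 32.4. A higher value in a bulk library can stand for more cells of a type or for more RNA per cell, which cannot be told apart here.

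In the Pu.1 line the Ighv members summed to 5701 and 4104 in WT a and b and to 3466 and 2619 in the libraries labelled Pu.1-KO a and b. The Igkv members summed to 6548 and 4589 in WT and to 3320.5 and 5145 in Pu.1-KO. The groups overlapped for Igkv but not for Ighv, where the WT mean was 1.61 times the Pu.1-KO mean.

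**Figure D1:**
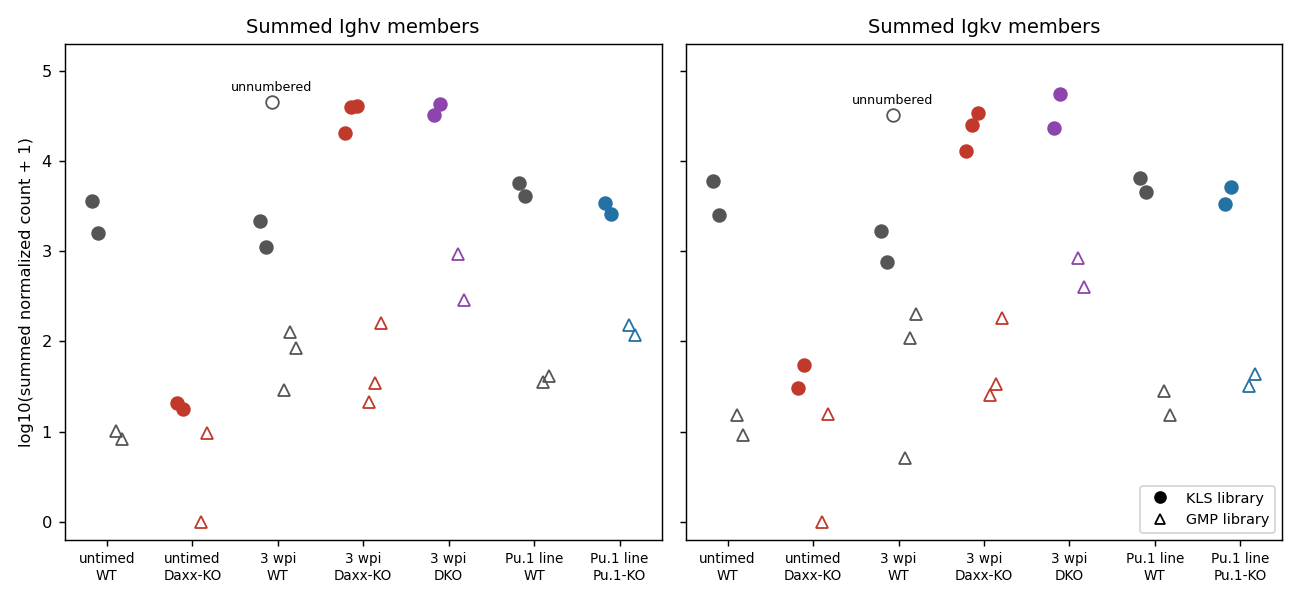
Summed normalized counts of the Ighv members (left) and Igkv members (right) in each library, as log10 of the sum plus 1, by set and genotype. Filled circles are KLS libraries, the open circle is the unnumbered 3 wpi WT KLS library and open triangles are GMP libraries. The untimed Daxx-KO KLS libraries lie with the GMP libraries, and the unnumbered WT library lies with Daxx-KO and DKO.

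The number of members at 50 or more normalized counts moved with these sums. It was 45 and 17 in untimed WT 1 and 2 and 0 in both untimed Daxx-KO libraries. At 3 wpi it was 12, 5 and 58 in WT 1, WT 2 and the unnumbered WT library, 39, 69 and 38 in Daxx-KO 1, 2 and 3, and 77 and 64 in DKO 1 and 2. Pu.1 line libraries had 31 and 18 such members in WT and 16 and 32 in the libraries labelled Pu.1-KO. The median over the 16 KLS libraries was 31.5 members.

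A single heavy chain segment took a large part of the reads. Ighv11-2 was the highest Ighv member in 14 of the 16 KLS libraries. At 3 wpi it held 74.98%, 82.6% and 74.7% of the Ighv reads in WT 1, WT 2 and the unnumbered WT library, and 77.6%, 75.5% and 73.4% in Daxx-KO 1, 2 and 3. Its share was lower in the libraries labelled DKO, 40.4% in DKO 1 (95% Wilson interval 39.9% to 41.0%) and 50.5% in DKO 2 (50.02% to 50.9%). These intervals treat each read as independent, so they are too narrow if reads are copies of the same molecules. They do not cover the spread between libraries. All 6 WT and Daxx-KO libraries at 3 wpi lay above both DKO libraries, although their Ighv sums ran from 1124 to 45570.1. For the Pu.1 line the share was 46.2% and 37.5% in WT and 50.4% and 28.3% in the libraries labelled Pu.1-KO.

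In normalized counts, Ighv11-2 stood at 1645, 928 and 34045 in the 3 wpi WT libraries, at 15962, 30261 and 29874 in Daxx-KO and at 13220.1 and 21972 in DKO. Without it, the Ighv sums of the libraries labelled DKO (19469 and 21556) exceeded those of every WT and Daxx-KO library, and the ratio of means was 2.44 to Daxx-KO and 5.02 to WT (55.1 without the unnumbered library). Other marker sums moved with this difference. Neutrophil markers were at 164317 and 132892 in these DKO libraries and at 489 to 26310.0 in the other 6. GMP markers were at 104138 and 108298 against 3368 to 43189, and KLS marker genes at 27647 and 36005 against 39901 to 94409. Their part in it was not tested. In untimed WT 2 it held 686 of 1607 normalized counts (42.7%). In untimed WT 1 it held 516 of 3594 (14.4%), and Ighv1-78 (595) and Ighv1-53 (575) were higher. The untimed Daxx-KO libraries had 18 and 55 Ighv reads in all, too few to rank segments, and Ighv11-2 (4.38) and Ighv1-61 (4.55) were nominally highest.

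The kappa locus had a recurrent segment as well, but it dominated less. Igkv14-126 led the Igkv reads in 8 of the 15 KLS libraries with 100 or more of them and was first or second in 14. At 3 wpi it stood at 597, 427 and 14887 normalized counts in the WT libraries, 7519, 11569.7 and 15214 in Daxx-KO, and 5336 and 13568 in DKO. Its share of the Igkv reads was 35.2%, 56.3% and 45.9% in WT, 57.8%, 45.4% and 45.0% in Daxx-KO, and 22.8% and 24.2% in DKO. Both libraries labelled DKO again lay below the other 6. Igkv8-19 (5784, 24.7% of Igkv reads) led in DKO 1 and Igkv12-46 (18593, 33.1%) in DKO 2, whereas Igkv8-19 was at 32.8 in DKO 2 and Igkv12-46 at 509.7 in DKO 1.

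Elsewhere Igkv14-126 was at 876 and 1199 in untimed WT, at 4.38 and 0 in untimed Daxx-KO, at 1555 and 1188 in Pu.1 line WT and at 1470.2 and 954 in the libraries labelled Pu.1-KO. It led in untimed WT 2 (48.0%) and in Pu.1-KO a (44.3%). Igkv5-39 led in untimed WT 1 (1454), Igkv6-15 in Pu.1 line WT a (2171), Igkv8-21 in WT b (1326) and Igkv8-30 in Pu.1-KO b (1048). The untimed Daxx-KO libraries were led by Igkv8-28 (8.75) and Igkv14-100 (31.8), from 27 and 179 Igkv reads in all.

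**Figure D2:**
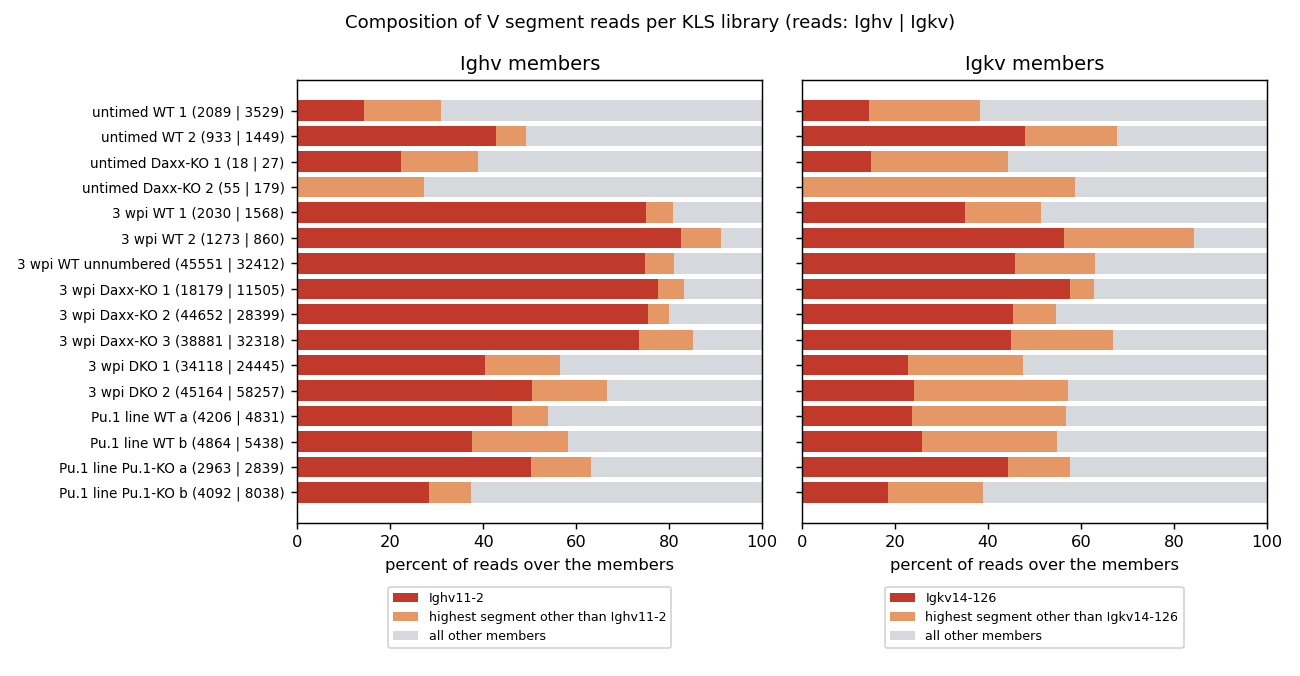
Composition of V segment reads in the 16 KLS libraries, as percent of the reads over all Ighv members (left) or Igkv members (right), with the read numbers of both loci beside each library name. Red bars are Ighv11-2 or Igkv14-126, orange bars the highest other segment and grey bars all remaining members. The red heavy chain bar is at 73.4% or more in all 6 WT and Daxx-KO libraries at 3 wpi and at 40.4% and 50.5% in DKO.

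Beside the recurrent pair, the leading segment mostly differed from library to library. With Ighv11-2 set aside, the 14 KLS libraries with 100 or more Ighv reads had 13 different leaders, and Ighv6-6 alone led in 2 (3 wpi Daxx-KO 2 and WT 2). With Igkv14-126 set aside, 15 libraries had 12 different leaders. Several of these segments, named here after their values were seen, were high in a single library. Ighv1-18 was at 4729.8 normalized counts in 3 wpi Daxx-KO 3 and at most 103 in any other KLS library. Ighv1-72 was at 5262 in DKO 1 and at most 176 elsewhere, and Ighv9-4 at 7011 in DKO 2 and at most 154 elsewhere.

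An effective number of segments, the inverse of the summed squared read shares, puts this on a common scale, since it equals the number of segments when all are equal. For Ighv it was 1.74, 1.45 and 1.76 in the 3 wpi WT libraries, 1.64, 1.74 and 1.79 in Daxx-KO, and 4.90 and 3.45 in DKO. For Igkv it was 4.77, 2.48 and 3.92 in WT, 2.89, 4.35 and 3.49 in Daxx-KO, and 7.77 and 5.21 in DKO. Both libraries labelled DKO were the highest of the 8 at either locus. With Ighv11-2 left out the Ighv number lay between 3.51 and 16.5 over the 14 libraries. These values describe segments and not clones, because no junction sequences were read and many clones can share a segment.

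Most members were seen at 50 or more in few libraries. Of the 136 members, 29 reached 50 in 1 KLS library, 77 in 3 or fewer and 13 in 8 or more. Ighv11-2 and Igkv14-126 did so in 14 libraries each, followed by Igkv10-96, Ighv1-55 and Igkv12-44 in 10 each. These last had highest values of 3164, 2553 and 2346, in that order, well below the highest values of the leading pair.

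**Figure D3:**
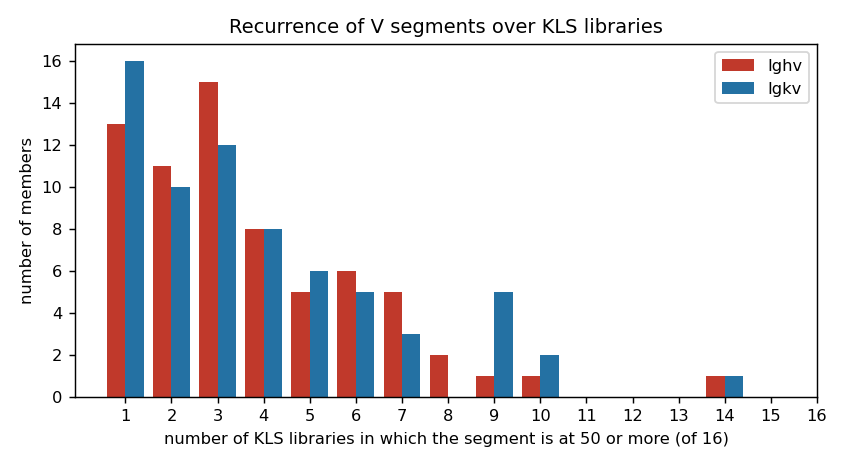
Number of Ighv (red) and Igkv (blue) members by the number of KLS libraries, of 16, in which the segment was at 50 or more normalized counts. Most members stand at 1 to 3 libraries, and the members at 14 are Ighv11-2 and Igkv14-126.

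The second phosphatidylcholine pair, also named after its values were seen, came up in a subset of libraries. At 3 wpi Ighv12-3 was at 60.0, 368, 71.3 and 78.0 in Daxx-KO 1, DKO 1, DKO 2 and the unnumbered WT library, and at 0 in the other 4. Igkv4-91 was at 259, 555, 162 and 211 in the same 4 libraries, and at no more than 1.08 in the others. Both segments thus appeared in 1 of 3 Daxx-KO, 1 of 3 WT and both DKO libraries. In the Pu.1 line, by contrast, Igkv4-91 was at 462 in WT a with Ighv12-3 at 0.

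The rule did not use the annotation. In GENCODE M21, 135 of the 136 members were annotated as V genes and 1, Igkv2-116 (196 in Daxx-KO 2 at 3 wpi, the only KLS library in which it reached 50), as a V pseudogene. Among the 207 other Ighv and Igkv symbols, 128 (61.8%) were pseudogenes. Members lay along most of both loci, with a median distance from the annotated start of Ighm of 1133 kb for Ighv, against 1286 kb for the other Ighv symbols, and from Igkc of 1204 kb for Igkv, against 1602 kb. Every Ighv9, every Igkv10 and 8 of the 9 Igkv6 segments were members, compared with 33 of 92 segments of Ighv1, the largest family.

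**Figure D4:**
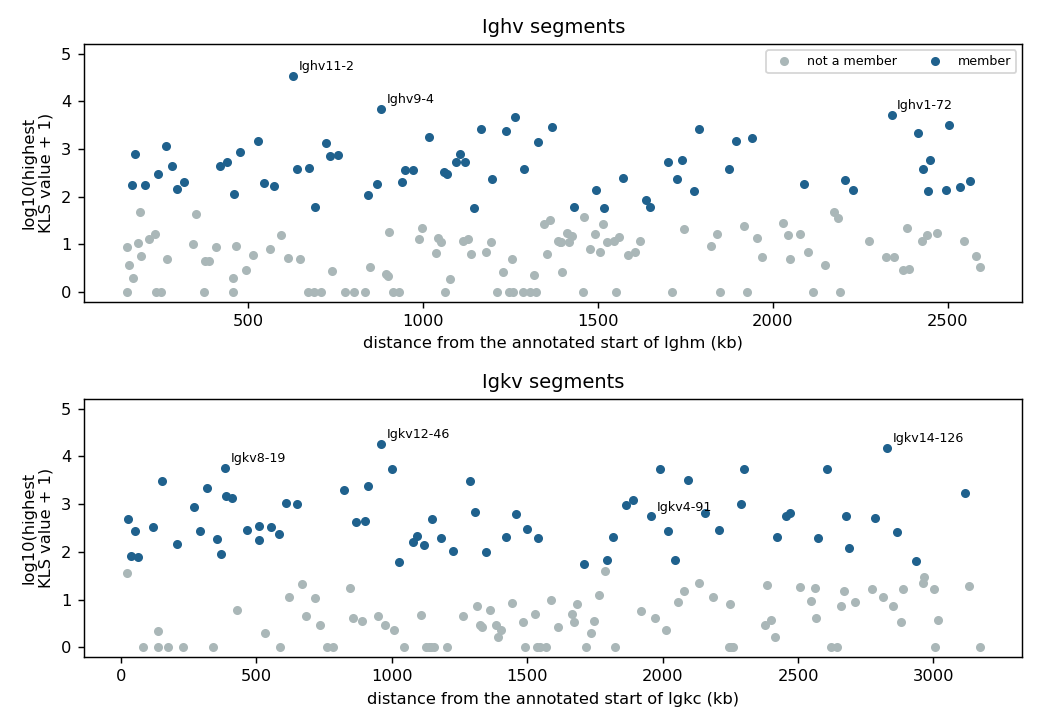
Highest KLS value of each Ighv segment (top) and Igkv segment (bottom), as log10 of the value plus 1, against its distance in kb from the annotated start of the constant gene Ighm or Igkc. Blue points are members and grey points other symbols. Members lie along both loci, and Ighv11-2 and Igkv12-46 are the highest of their loci.

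Constant region genes show the class of the heavy chain. Ighm, the constant gene of IgM and also transcribed before rearrangement, was at 7163, 2669 and 110066 in the 3 wpi WT KLS libraries, at 51095, 102386 and 137691 in Daxx-KO and at 146447 and 188850.0 in DKO. WT 1 and WT 2 were again the lowest. Ighm made up 80.8% to 98.3% of the summed heavy chain constant genes in these 8 libraries, and class-switched genes varied by library. Igha, the constant gene of IgA, was at 20982 in Daxx-KO 2 and 21775 in DKO 1 but between 11.9 and 2864 in the other 6, and Ighg2b was at 15904 in the unnumbered WT library. Among Pu.1 line libraries Ighm made up 60.9% to 73.6% and Igha 18.8% to 37.8%.

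The kappa constant gene Igkc was listed at 0 in all 32 libraries, as were Iglc1, Iglc3, Ms4a1, Rag1 and Rag2. Each of these overlaps another annotated gene in GENCODE M21 (Gm30211 for Igkc). Iglc2, a lambda constant gene, was at 10.8, 8.83 and 703 in 3 wpi WT, 93.9, 324 and 284 in Daxx-KO and 692 and 732 in DKO, so that the unnumbered WT library lay with DKO.

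Lists of plasma cell and B-lineage genes were tested across all genes in the KLS libraries (limma on log2(value + 1), Benjamini-Hochberg over all genes with a mean of 10 or more, log2 fold changes with SE on that scale). In the untimed set, 13 of 16 tested genes of both lists passed, 2 higher and 11 lower in Daxx-KO, where 23.1% of all genes passed (10.6% higher and 12.5% lower). The count was 8 without Daxx-KO 1 and 7 without Daxx-KO 2. Plasma cell genes fell, among them Jchain, which links IgM and IgA polymers, with 3336 and 1290.1 in WT against 6.56 and 18.5 in Daxx-KO (log2 fold change -7.42 ± 0.51, limma adjusted p = 2.65e-05). Irf4, a factor of plasma cell differentiation, changed by -6.70 ± 0.68 (limma adjusted p = 0.000222), and Sdc1, the plasma cell surface marker CD138, by -6.10 ± 0.73 (limma adjusted p = 0.000573). Some of the lower genes reached the filter on low values only through WT, where they were high. Without that filter, 12 of 22 list genes passed, 1 higher and 11 lower, where 1751 of 25008 genes passed.

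B-lineage factors fell in the same libraries. Ebf1, which commits cells to the B lineage, was at 540.2 and 1489.9 in untimed WT and 19.7 and 9.70 in Daxx-KO (-5.92 ± 0.47), and Pax5, which maintains that identity, at 153 and 167 against 2.19 and 4.55 (-5.26 ± 0.49). Dntt, the enzyme that adds bases at V(D)J junctions, fell from 1072 and 2182 to 10.9 and 2.12 (-7.97 ± 0.58). The list genes that rose were Xbp1, a secretory factor with uses in many cells (0.79 ± 0.15), and Cd79b, a part of the B-cell receptor (1.25 ± 0.26). All 5 heavy constant genes tested were lower, with a log2 fold change of -4.22 ± 0.25 for Ighm. KLS marker genes, summed, were also lower in the untimed Daxx-KO libraries (10661 and 10031 against 38829 and 40348 in WT) and GMP markers higher (11926 and 15495 against 1311 and 692). Their part in the V segment values was not tested.

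At 3 wpi single libraries decided the calls. With all libraries, 1 of the 23 tested list genes passed in Daxx-KO against WT, where 0.257% of all genes passed (0.184% higher and 0.0724% lower). This was Dntt, at 1761, 2314 and 1409 in WT against 10360.5, 18887 and 6767 in Daxx-KO (2.62 ± 0.39, limma adjusted p = 0.0294). Leaving out the unnumbered WT library gave 11 calls, all higher in Daxx-KO, where 0.903% of all genes passed (0.705% higher and 0.198% lower). In addition to Dntt these were Jchain, Xbp1, Sdc1, Mzb1, Prdm1, Irf4, Tnfrsf17, Derl3 and Txndc5 of the plasma cell list and Pou2af1, a coactivator of immunoglobulin transcription. Leaving out WT 1, WT 2, Daxx-KO 1 or Daxx-KO 2 gave 0 calls in limma each time.

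The library values show how the V segments and the plasma cell genes went together. Mzb1, a chaperone of antibody-secreting cells, was at 2.16 and 1.77 in WT 1 and WT 2, the libraries with the fewest V segment reads at 3 wpi. It was at 310.1 in the unnumbered WT library, 148, 465 and 224 in Daxx-KO and 379 and 412 in DKO. Jchain was at 452 and 109 in WT 1 and 2, at 7513 in the unnumbered library and between 1884 and 13327 in the other 5. The summed level of 5 plasma cell markers, all above 0 in these 8 libraries, was 301 to 8815 over the WT libraries, 2636 to 13826 over Daxx-KO and 13831 to 14702 over DKO.

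Ebf1 and Dntt followed another order than the plasma cell genes, whereas Pou2af1 of the B-lineage list did not. From Daxx-KO to DKO, 2 of 13 tested B-lineage genes had a positive log2 change (median -2.10). Among the plasma cell genes 9 of 10 did (median 0.57). Pou2af1 was at 33.5 and 43.3 in WT 1 and WT 2, at 885 in the unnumbered WT library, at 406 to 1984 in Daxx-KO and at 1133 and 971 in DKO. Ebf1 was at 218, 519 and 221 in WT 1, WT 2 and the unnumbered WT library, 3512, 23895 and 1063 in Daxx-KO, and 969.6 and 216 in DKO. The unnumbered WT library and DKO 2 had the highest V segment sums of all KLS libraries (77996 and 99674), with Ebf1 within or just below the range of WT 1 and WT 2. Dntt was lower in DKO (457 and 1094) than in Daxx-KO (-3.95 ± 0.44, limma adjusted p = 0.000512), the 1 gene of both lists called between these groups, where 15.4% of all genes passed (8.17% higher and 7.22% lower). Leaving out Daxx-KO 3 gave 3 calls, all lower. Of the constant genes Ighd, which encodes the IgD heavy chain, was also lower in DKO than in Daxx-KO (-3.11 ± 0.79, limma adjusted p = 0.0268).

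**Figure D5:**
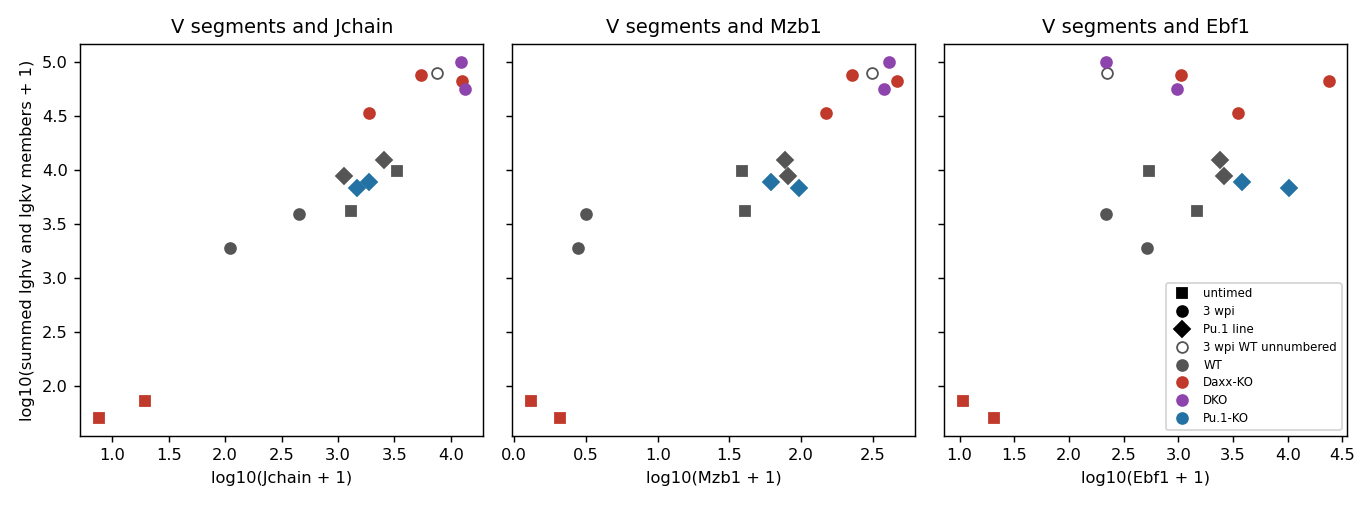
Summed Ighv and Igkv members in each of the 16 KLS libraries, as log10 of the sum plus 1, against Jchain (left), Mzb1 (middle) and Ebf1 (right) on the same scale. Point shape gives the set and colour the genotype, and the open circle is the unnumbered 3 wpi WT library, which lies at high Jchain and Mzb1 and at low Ebf1.

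In the libraries labelled DKO, 3 of 23 list genes passed against WT with all libraries, where 17.6% of all genes passed (9.24% higher and 8.4% lower). These were Xbp1 (2.04 ± 0.53), Prdm1, the repressor that drives plasma cell differentiation (2.92 ± 0.89), and Derl3, of endoplasmic reticulum degradation (2.34 ± 0.69). Without the unnumbered library 11 passed, 10 higher and Dntt lower, where 19.6% of all genes passed (11% higher and 8.66% lower). Leaving out WT 1, WT 2 or DKO 1 gave 0 calls in limma, and leaving out DKO 2 gave 1, a different gene that was lower. In the Pu.1 line, limma, edgeR and DESeq2 each called 0 of 22 list genes, 1 had an unadjusted limma p under 0.05, and 0.81% of all genes passed (0.469% higher and 0.341% lower). There, leaving out Pu.1-KO a gave 2 calls, both lower, and leaving out Pu.1-KO b gave 1, higher.

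GMP libraries, which the rule did not use, held few V segment reads. The members summed to between 0 and 1779 normalized counts over the 16 GMP libraries, with a median of 64.0, against a median of 9179 over the KLS libraries. The members were chosen by their KLS values, so the rule itself favours KLS cells here, and the cell types were normalized separately. The members held 0% to 98.5% of all Ighv and Igkv counts in GMP libraries, and 80.4% to 99.9% in KLS libraries. Of the 136 members, 20 reached 50 in any GMP library and 4 in more than 1. The highest sums were those of the libraries labelled DKO, 1779 in DKO a and 687 in DKO b, against 32.2 to 342 in the other 6 GMP libraries at 3 wpi. DKO a was led by Ighv7-3 (309) and Igkv1-110 (210.0), and DKO b by Ighv1-72 (94.7) and Igkv12-44 (175).

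Ighv11-2 was at 8.12 and 1.97 in those DKO libraries. It led the Ighv reads in 5 other GMP libraries, at 9.77, 11.4 and 69.2 in Daxx-KO a, b and c and at 83.0 and 42.4 in WT b and c. Of the GMP libraries, 12 share an identifying number with a KLS library of the same set in their column names, and in these 12 pairs the GMP leader was also the KLS leader 5 times for Ighv and 1 time for Igkv. The KLS sum exceeded the GMP sum in every pair, by between 8.84 and 1204 times for Ighv and between 7.05 and 789 times for Igkv. These ratios share the limits above, a choice of members by KLS values and separate normalization. Ighm was at 626 to 4361 in GMPs, and the Ighv sum per Ighm count was at most 0.0905 in 15 of the 16 GMP libraries and 0.779 in DKO a. In KLS cells it was 0.162 to 0.670 in 14 libraries and 0.0359 and 0.0199 in untimed Daxx-KO.

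Only 16 of the 136 members passed the filter on low values in the 3 wpi GMPs, and 1 was called. Igkv1-110 was at 210.0 and 63.1 in the libraries labelled DKO, at 0 in all 3 WT libraries and at 0, 0.9504 and 0 in Daxx-KO (DKO against WT, limma adjusted p = 0.0286), where 0.292% of all genes passed (0.211% higher and 0.0802% lower). It reached the filter only through the libraries where it was high, so that the call by itself supports nothing about the members. The call was lost on leaving out any WT library or DKO a, and leaving out DKO b gave 2 calls. Between DKO and Daxx-KO limma called 0 of 16 members, with 4 at an unadjusted p under 0.05, edgeR called 1 and DESeq2 5, where 0.0583% of all genes passed in limma, all higher, and leaving out DKO b gave 3 calls. Between Daxx-KO and WT, limma, edgeR and DESeq2 called 0 of 16, with 0 at an unadjusted limma p under 0.05, where 0.0948% of all genes passed (0.0656% higher and 0.0292% lower). No member passed the filter in the untimed GMPs, where 33% of all genes passed, and 1, Ighv1-82, in the Pu.1 line, where none of limma, edgeR and DESeq2 called it (limma adjusted p = 0.128, unadjusted p = 0.0399) and 17.6% of all genes passed (9.15% higher and 8.49% lower).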

How the data were processed

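RNA sequencing of sorted KLS cells and GMPs was deposited as gene tables, 1 per set and cell type. Per the labels' processing notes the authors used CASAVA 1.8.4, cutadapt 1.13, STAR 2.5.3 and DESeq2 1.16.1, and the deposited values are a signal, gene counts divided by size factors of each table. Dividing by the smallest step of each library gave whole reads for 100% of values (within 0.01). Of 111 columns, 79 were not used because they hold repeat subfamilies or carry names with no genotype that the labels give. Members and gene lists were chosen with earlier results of these data known. Groups were compared with limma 3.58.1 (R 4.3.3) on log2(value + 1), all libraries of a table in 1 fit, for genes with a mean of 10 or more, called at a Benjamini-Hochberg adjusted p under 0.05. The method was tested on simulated data. Alternatives were edgeR 4.0.16 and DESeq2 1.42.0 on the whole reads, TMM scaling, other pseudocounts and filters, a replicate block and leaving out each library. Named genes are the leading Ighv and Igkv member of each KLS library, the members at 50 or more in the most libraries, members called in GMPs and genes of the lists; others are said to be chosen after their values were seen, as were Ighv1-53, Ighv6-6, Ighv7-3 and Igkv2-116. The paper calls replicates of its genomic assays biological, but the labels do not tie each library to an animal, so p-values measure the spread between these libraries. Same-numbered libraries did not deviate together (correlations of -0.214 to 0.0689), so numbers were not taken as pairs. V segment reads lie on germline segments, and reads across junctions may align less well. The result for 1 gene of the lists is not reported here.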

Additional observations from a re-analysis of the deposited data

Results flagged for a closer look

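In 7 genes of the lists the Daxx-KO libraries all lay on opposite sides of WT in the untimed and the 3 wpi set, and the difference between the sets was not tested. The share of all genes that do the same was not counted, so this number by itself says nothing particular about the lists. Values are log2 ratios of Daxx-KO to WT means (plus 1), the untimed set first. In KLS cells they were -7.76 and 2.71 for Dntt, -6.85 and 2.51 for Blnk, -6.02 and 4.89 for Ebf1, and -5.21 and 5.34 for Pax5. They were -4.25 and 5.53 for Igll1, -1.94 and 2.504 for Ighd, and -1.85 and 4.35 for Vpreb3. In GMPs the values were -1.17 and 2.91 for Blnk and -2.28 and 3.74 for Igll1. Daxx-KO 2, with B cell markers summing to 7359 against 628 and 460 in Daxx-KO 1 and 3, set much of the 3 wpi values in KLS cells. Without it, an alternative chosen after seeing the data, they were 2.84 for Ebf1, 2.38 for Pax5, 2.44 for Igll1, 1.49 for Vpreb3, 1.39 for Blnk, 2.23 for Dntt and 2.07 for Ighd. In GMPs they were 1.21 for Blnk and 1.67 for Igll1 without Daxx-KO b. The sets were normalized separately, and the host and kit behind the untimed set were not settled, so that these cannot be told apart from the difference between the sets.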

How the results depend on the processing

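Of 184 comparisons of a result with an alternative, 143 were labelled the same, 18 stronger, 20 weaker and 3 moved, and the cause was not tested. These labels compare the size of a count or share, and neither its direction nor the genes called. A count that stayed at 0 was labelled the same. For DKO against WT in 3 wpi KLS cells, all 3 calls were higher with all libraries. The 1 call without DKO 2 was another gene and lower, and was labelled weaker. In KLS cells at 3 wpi, list genes called in Daxx-KO against WT were 1 in limma, 0 in edgeR, 4 in DESeq2 and 6 with the replicate block, which also lacks the unnumbered library, and 0 to 11 on leaving out a library. For DKO against WT they were 3, and 1 without a filter, 0 in edgeR, 1 in DESeq2, 11 with the replicate block and 0 to 11 on leaving out a library. For DKO against Daxx-KO they were 1, and 4 in DESeq2, 4 with the replicate block and 1 to 3 on leaving out a library. Leaving out a library gave 7 to 15 calls in the untimed KLS set and 0 to 2 in the Pu.1 line. In the untimed KLS set the replicate block gave 14 calls against 13, with all 13 among them, and it called 0 members in the untimed GMPs. The crossed pairing of the untimed GMPs, chosen after seeing the data, called 0 members. Leaving the unnumbered WT library out of the sum ratios was also chosen after seeing the data. Members called in 3 wpi GMPs for DKO against WT were 1, and 0 with a pseudocount of 0.5, 0 with a mean of 50 or more, 5 in DESeq2 and 0 to 2 on leaving out a library. For DKO against Daxx-KO they were 0, and 1 with a pseudocount of 5, without a filter, with TMM scaling or in edgeR, 5 in DESeq2 and 0 to 3 on leaving out a library. The median number of segments was 31.5, 18 at a minimum of 100 and 31 to 32 on leaving out a library. The median share of the leading Ighv member was 48.3%, 70.0% for the leading 3 together and 46.2% to 50.4% on leaving out a library, and for Igkv 39.7%, 67.4% and 35.2% to 44.3%. Over all genes, calls were 39 in limma, 342 in DESeq2 and 81 with the replicate block for Daxx-KO against WT in 3 wpi KLS cells, 2340 and 1283 with the block for DKO against Daxx-KO, and 3118 and 1751 without a filter in untimed KLS cells. In the Pu.1 line KLS cells they were 190, 784 with TMM scaling, 533 with a mean of 50 or more, 1920 in edgeR and 1239 in DESeq2, and the median log2 change of all genes moved from 0.12 to between -0.37 and 0.49. In 3 wpi GMPs they were 13 in limma and 79 in DESeq2 for Daxx-KO against WT, 40, 22 with a mean of 50 or more and 263 in DESeq2 for DKO against WT, and 8, 5 with a mean of 50 or more, 17 with a pseudocount of 5, 13 without a filter, 18 with TMM scaling, 20 in edgeR and 280 in DESeq2 for DKO against Daxx-KO. Few V segment reads, in libraries of up to 22647397 gene reads, limit the untimed Daxx-KO KLS libraries (18 and 55 Ighv reads) and most GMP libraries, where no order of segments can be read.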
